A study of Mus musculus with 3 samples.

Results

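Cluster 4 is one of the groups of pituitary cells with the highest share of prolactin messenger, and it is described here as the prolactin-high lactotropes. Its members were the cells to which the authors' clustering gave the number 4, in all 3 libraries of the series. They numbered 2643 of 37474 cells. The TpitKO library held 1463 of them among 13413 cells, the TpitHT library 588 among 12839, and the TpitWT library 592 among 11222.

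The study profiled dissociated whole mouse pituitaries by single-cell RNA sequencing, after a sort with propidium iodide that removed dead cells. The groups were TpitKO, TpitHT and TpitWT, with 1 library each, and Tpit, the product of the gene Tbx19, is the transcription factor that drives corticotrope and melanotrope fate. The labels spell out neither HT nor the way the allele was made, and give no age, sex or number of mice per library. Values were sums of raw counts over all cells of a cluster in 1 genotype, written below as CPM, a gene's count scaled to a fixed total for the cluster. With 1 library per genotype no difference could be set against the spread between animals, so nothing was tested, and every interval is a 95% interval for counting error only.

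Lactotropes make prolactin, the pituitary hormone that drives milk production. Their Prl gene is switched on by the pituitary factor POU1F1, also called Pit-1, and raised by oestrogen through its receptor. Dopamine from the hypothalamus holds prolactin release down through the D2 receptor, which acts through inhibitory G proteins that lower cyclic AMP. Lactotropes and somatotropes arise from a shared POU1F1-dependent lineage, while the corticotropes and melanotropes that need Tpit belong to a separate one.

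The Prl promoter is shown because Prl sets this cluster apart from the other large lactotrope cluster. Prl (ENSMUSG00000021342, protein coding) lies on the plus strand of chromosome 13 from 27057570 to 27065205 in GRCm38. The 250 bases upstream of its start, taken from RefSeq (GRCm38.p6, plus strand, chr13:27057320-27057569), are printed with the letters TATNCAT, a form of the Pit-1 element, in capitals on either strand.
Prl: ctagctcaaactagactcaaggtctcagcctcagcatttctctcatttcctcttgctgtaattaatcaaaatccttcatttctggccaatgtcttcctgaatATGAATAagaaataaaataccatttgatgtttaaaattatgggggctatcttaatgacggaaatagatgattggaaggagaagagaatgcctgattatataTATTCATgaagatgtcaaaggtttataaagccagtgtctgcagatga
One match lay on the minus strand at -148 to -142 and the other on the plus strand at -47 to -41, counted from the start of the gene, and they did not overlap. Of 27025 mouse promoters with a window of the same length, 8.23% held at least 1 match and 1.35% held 2 or more. A match is a stretch of letters and not a measured binding site.

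Cluster 4 libraries totalled 20179287 counts in TpitKO, 9018797 in TpitHT and 7685213 in TpitWT, or 13793, 15338 and 12982 counts per cell. Tbx19 stood at 0.690 CPM over all cells of the TpitKO library, 12.4 CPM in TpitHT and 17.6 CPM in TpitWT, and cluster 4 held 2, 1 and 5 of its counts. The row that the authors named LacZp had 87 counts in the TpitKO library, 175 in TpitHT and 0 in TpitWT, with none in cluster 4. Between 36 and 40 cell barcodes occurred in both libraries of a pair, at most 0.348% of a library's cells, and none was in cluster 4 in both. No library was set aside.

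The labelled identity was first checked against the markers of the cell type. Prl took 496400 CPM of cluster 4 in TpitKO, 495690 CPM in TpitHT and 517570 CPM in TpitWT, so prolactin messenger took a similar and very large part of the counts in each genotype. In cluster 0, the other large lactotrope cluster, Prl stood at 170070, 141430 and 138550 CPM. Every cell of both clusters had a Prl count, as did every cell of cluster 9, which is led by endothelial genes and had 24120, 9713 and 38061 CPM, so presence of a Prl count does not mark the type and only the level does. Cluster 12, a group of 422 TpitKO, 83 TpitHT and 86 TpitWT cells, was at 499560, 475420 and 424590 CPM, which put it just above cluster 4 in TpitKO and below it in TpitHT and TpitWT. Cells of cluster 12 had 5560, 6342 and 6003 counts each, less than in cluster 4.

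Of the other genes given as markers, none was highest in cluster 4 in all 3 libraries. Gnai1 encodes an inhibitory G protein alpha subunit of the kind that D2 receptors use, and was at 104 CPM in TpitKO, 45.1 in TpitHT and 60.4 in TpitWT. Among clusters of at least 50 cells it had rank 1 in TpitKO and rank 2, behind the Pomc-rich cluster 7, in TpitHT and TpitWT. Eno3, the muscle-type enolase of glycolysis, had rank 1 in TpitKO, 3 in TpitHT and 5 in TpitWT. The ranks are not over the same clusters, since TpitKO has no cell of clusters 6 and 7. Cluster 6 was above cluster 4 for Eno3 in the other libraries, at 127.6 CPM in TpitHT and 76.0 in TpitWT. Nog, the secreted inhibitor of bone morphogenetic proteins noggin, was at 25.3, 46.5 and 35.4 CPM with ranks 2, 1 and 2. Igsf1 encodes an immunoglobulin-family membrane glycoprotein of POU1F1-lineage cells. As a share of all counts it was lower in cluster 4 (116, 105 and 110 CPM) than in cluster 0 (173, 173 and 170 CPM). With Prl left out of the totals, Igsf1 and the other 3 of these 4 markers were higher in cluster 4 than in cluster 0 in all 3 libraries.

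**Figure D1:**
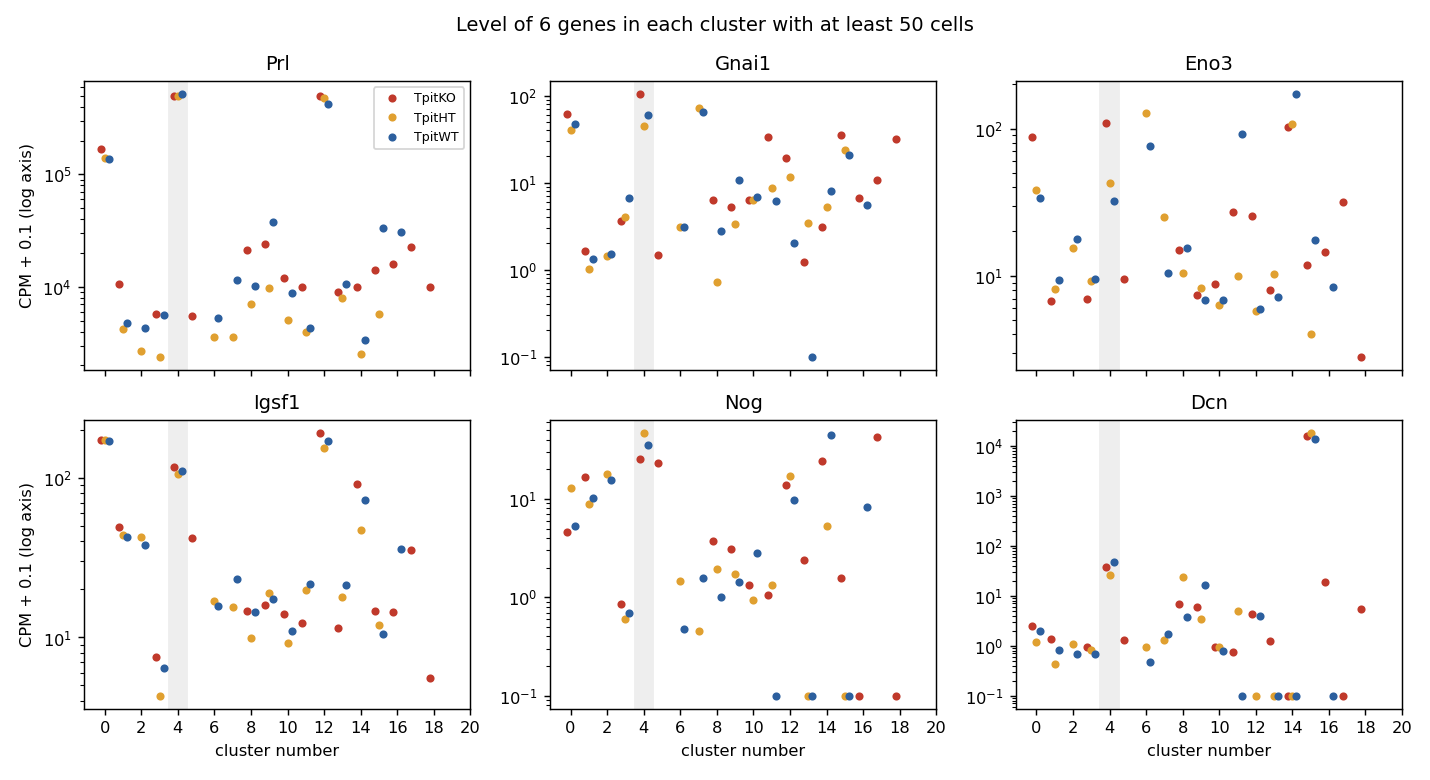
Level of Prl, Gnai1, Eno3, Igsf1, Nog and Dcn in each cluster with at least 50 cells, as CPM plus 0.1 on a log axis, with 1 point per library (TpitKO red, TpitHT amber, TpitWT blue) and cluster 4 shaded grey. Prl is highest in clusters 4 and 12, and Dcn is highest in cluster 15 with cluster 4 far below it. As a share of all counts, Prl included, Igsf1 is higher in clusters 0 and 12 than in cluster 4.

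The lineage factor Pou1f1 was read at 305 CPM in TpitKO, 317 in TpitHT and 276 in TpitWT cells of cluster 4, in 91.0%, 91.5% and 85.3% of cells. Drd2, the D2 dopamine receptor, was at 50.6, 46.1 and 44.0 CPM, and Esr1, the oestrogen receptor alpha, at 75.6, 54.1 and 58.2 CPM. Of the 3 genes, Drd2 was at nearly the level of cluster 0 (54.3, 53.5 and 51.4 CPM), while Pou1f1 (515, 479 and 509 CPM) and Esr1 (168, 130 and 139 CPM) took a larger share of counts there. Because Prl fills much of a cluster 4 cell's counts, these shares are given again below with Prl left out.

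Markers of cell types outside the hormone lineages were low. Summed endothelial markers were at 2.92 CPM in TpitKO, 4.88 in TpitHT and 4.03 in TpitWT, macrophage markers at 3.42, 2.33 and 2.47 CPM, and stem cell markers at 1.04, 0.444 and 3.12 CPM. The fibroblast list summed to 167, 144 and 206 CPM, nearly all of it Col1a2 (129, 118 and 158 CPM) and Dcn (37.6, 26.4 and 48.0 CPM). The defining fibroblast genes Col1a1 and Pdgfra had 0 counts in cluster 4 in each library, and Lum had 6 counts in TpitKO, 0 in TpitHT and 2 in TpitWT. Mki67, a marker of dividing cells, had 3, 1 and 1 counts.

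Markers of other hormone cells were far from 0 in cluster 4. The somatotrope list, nearly all of it Gh, summed to 6209 CPM in TpitKO, 10220 in TpitHT and 15827 in TpitWT, against 26904, 39617 and 94533 CPM in cluster 9. The corticotrope list, led by Pomc, summed to 46.0, 601 and 1588 CPM in cluster 4 and 10.7, 1301 and 3220 CPM in cluster 9. Gonadotrope markers summed to 1281, 812 and 624 CPM in cluster 4 and 3713, 1971 and 2128 CPM in cluster 9, and thyrotrope markers to 1331, 948 and 666 CPM and 3923, 2031 and 2302 CPM, with Cga in both lists. These sums moved with genotype in cluster 4, and each was above that of cluster 4 in cluster 9, except the corticotrope sum in TpitKO.

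On the deposited map of cells, cluster 4 formed the left edge of the lactotrope island, beside clusters 0 and 12. Its median position was -4.38 and -7.20 in TpitKO, -4.43 and -7.91 in TpitHT, and -4.55 and -7.53 in TpitWT on the x and y axes, which have no unit. Most of the cells that lay nearer to another cluster's median lay nearest to cluster 12, with 328 in TpitKO, 59 in TpitHT and 49 in TpitWT. A set of TpitWT cells stood apart: 39 of the 592 (6.59%, 4.73 to 8.90) were far from the island, at y above 0, against 3 of 1463 TpitKO cells (0.205%, 0.0423 to 0.598) and 3 of 588 TpitHT cells (0.510%, 0.105 to 1.48). Of the TpitWT cells, 37 were nearest to the somatotrope clusters 1, 2 and 5. Counts per cell were not used here, so the levels could not be given without them.

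**Figure D2:**
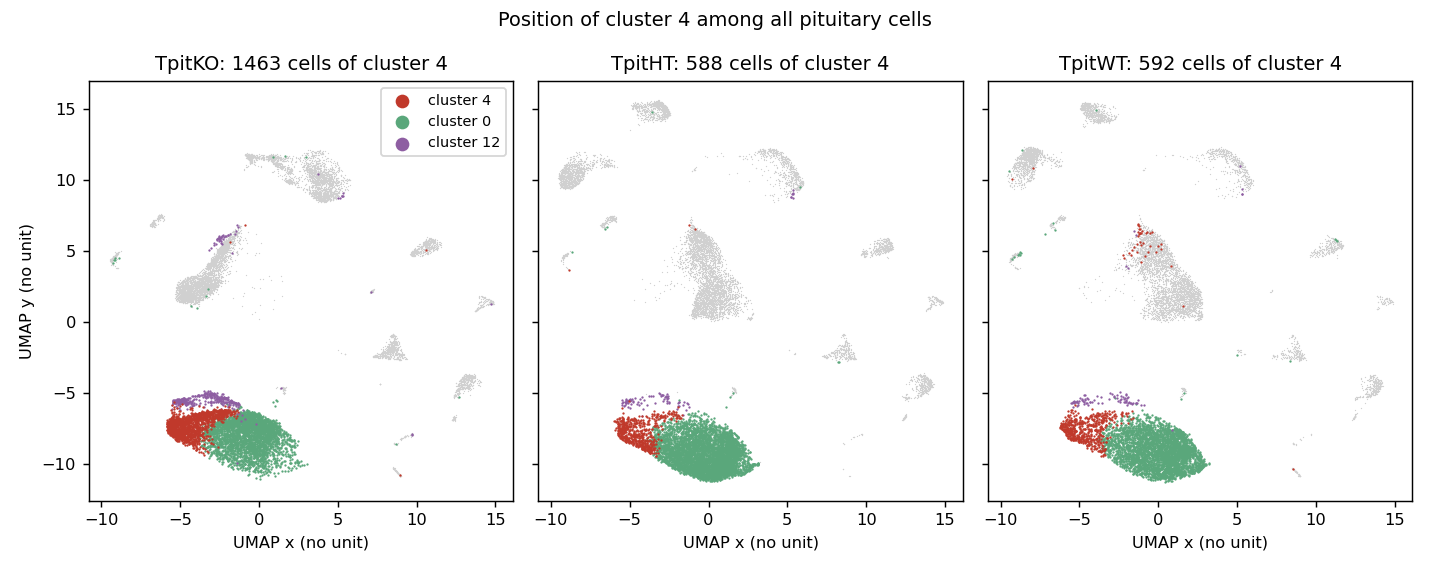
Deposited map of all cells in TpitKO (left), TpitHT (middle) and TpitWT (right), both axes without unit, with cluster 4 in red, cluster 0 in green, cluster 12 in purple and other cells in grey. Cluster 4 sits at the left of the lactotrope island in each library, and 39 TpitWT cells of cluster 4 lie above y = 0, most of them over the somatotrope clusters.

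Cluster 4 made up 10.9% of TpitKO cells (10.4 to 11.4), 4.58% of TpitHT cells (4.22 to 4.96) and 5.28% of TpitWT cells (4.87 to 5.71). Outside clusters 6 and 7, the Pomc-rich clusters that the TpitKO library lacks, its share was 10.9%, 5.31% and 6.29%. Among the cells of clusters 0 and 4 alone, it was 31.7% in TpitKO (30.3 to 33.0), 11.8% in TpitHT (10.9 to 12.7) and 15.1% in TpitWT (14.02 to 16.29). The clusters were drawn from the expression of the same cells. Among the genes that separate cluster 4 from cluster 0 is Gal, which also differed between the libraries in cluster 0. A larger cluster and a shift of those genes within one continuous lactotrope group cannot be told apart.

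What separates cluster 4 from cluster 0 was described within each library, as a log2 ratio after 10 CPM had been added to both values. The clustering could use each of these genes, so the differences are a description. Cluster 4 cells held 6847 Prl counts each in TpitKO, 7603 in TpitHT and 6719 in TpitWT, against 1585, 1626 and 1249 in cluster 0. Their counts of all other genes together were closer, at 6946, 7735 and 6263 per cell in cluster 4 and 7735, 9870 and 7765 in cluster 0. A cluster 4 cell therefore held 4.32, 4.68 and 5.38 times as many Prl counts as a cluster 0 cell, with fewer counts of other genes.

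Of 5633 genes measured in both clusters, 7 stood at least 2-fold higher in cluster 4 in every library (0.124%) and 176 stood at least 2-fold lower (3.12%). The median gene was lower in cluster 4, at -0.54 in TpitKO, -0.61 in TpitHT and -0.69 in TpitWT on the log2 scale. With Prl left out of the totals those medians were 0.03, 0.00 and -0.03, and 12 genes (0.213%) were higher and 21 (0.373%) lower. Counted per cell, 12 genes (0.213%) were higher and 71 (1.26%) lower. Values below are log2 ratios with Prl left out, in the order TpitKO, TpitHT and TpitWT.

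Dcn, Nog and Col27a1 led the genes that were higher in cluster 4. Dcn, the small matrix proteoglycan decorin, stood 2.72, 2.47 and 3.17 higher, with 37.6, 26.4 and 48.0 CPM of all counts against 2.35, 1.10 and 1.87 CPM in cluster 0. It was counted in 13.2%, 8.503% and 11.1% of cluster 4 cells, against 1.20%, 0.883% and 0.903% in cluster 0 and 1.99%, 1.07% and 2.42% in cluster 9, so Dcn marked a minority of the cluster and was above the level of a cell type with few counts of it. Cluster 9 had 4250, 4343 and 3610 counts per cell. After clusters 15 and 4, the next Dcn level among clusters of at least 50 cells was 18.3 CPM in TpitKO (cluster 16). It was 23.3 CPM in TpitHT (cluster 8), close to cluster 4, and 16.1 CPM in TpitWT (cluster 9). Noggin stood 1.97, 2.04 and 2.38 higher, and the fibrillar collagen gene Col27a1 2.18, 1.88 and 2.24 higher. Col27a1 was at 36.7, 24.5 and 29.8 CPM of all counts in cluster 4 and 6.90, 5.04 and 4.51 CPM in cluster 0.

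Pcsk2, which encodes the prohormone convertase PC2, stood 1.92, 1.74 and 2.09 higher in cluster 4, and was counted in 32.7%, 41.2% and 38.3% of its cells against 8.43%, 19.8% and 13.2% in cluster 0. The gene is also a known marker of melanotropes. Its level in cluster 4 had rank 6 among clusters of at least 50 cells in each library. As a share of all counts, Pcsk2 was at 42.9, 64.8 and 64.9 CPM in cluster 4 and 56.7, 96.9 and 38.7 CPM in cluster 12. The ETS-family factor gene Etv1 stood 1.504, 1.23 and 1.61 higher, and the imprinted Peg10 1.51, 1.63 and 1.76 higher. The 10 named by rank also held AI593442, Ttyh1 of the tweety family of membrane proteins, Mfge8, a secreted glycoprotein that binds phosphatidylserine, and Lpl, lipoprotein lipase. Among these 4 the smallest ratio in any library was 1.38, for both Lpl and Mfge8, and cluster 9 held far more Mfge8 (376, 483 and 296 CPM) than cluster 4 (32.1, 22.3 and 28.2 CPM).

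Galanin led the lower genes. Gal encodes a neuropeptide that lactotropes make and that acts on them locally, and it took 19.3 CPM of cluster 4 in TpitKO, 14.3 in TpitHT and 63.2 in TpitWT, against 305, 532 and 699 CPM in cluster 0. The ratio was -2.96, -4.04 and -2.54. It was counted in 11.8%, 11.1% and 18.1% of cluster 4 cells, 51.1%, 55.6% and 59.1% of cluster 0 cells, and 2.54%, 3.56% and 7.25% of cluster 9 cells. Ly6h, of the Ly6 family of membrane-anchored proteins, was next, at -2.07, -2.51 and -2.64.

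The other lower genes had several known roles. Cebpd, a transcription factor of stress and glucocorticoid responses, was at -2.17, -1.70 and -1.75, and the growth-arrest gene Gadd45g at -1.47, -1.32 and -1.34. Rbp4, the retinol carrier, was at -1.72, -1.58 and -1.49. Qpct, the enzyme that closes N-terminal glutamine into pyroglutamate on peptides, was at -1.40, -2.10 and -2.09, and the neuronal ubiquitin hydrolase Uchl1 at -1.35, -1.82 and -2.14. Lower in cluster 4 were also Hapln1, a hyaluronan link protein, Dapl1, and Ramp1, a subunit of the receptor for calcitonin gene-related peptide, each at -1.28 or below in every library. With all counts as the base, Itm2b, Myoc and Dlk1 took their place among the first 10.

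**Figure D3:**
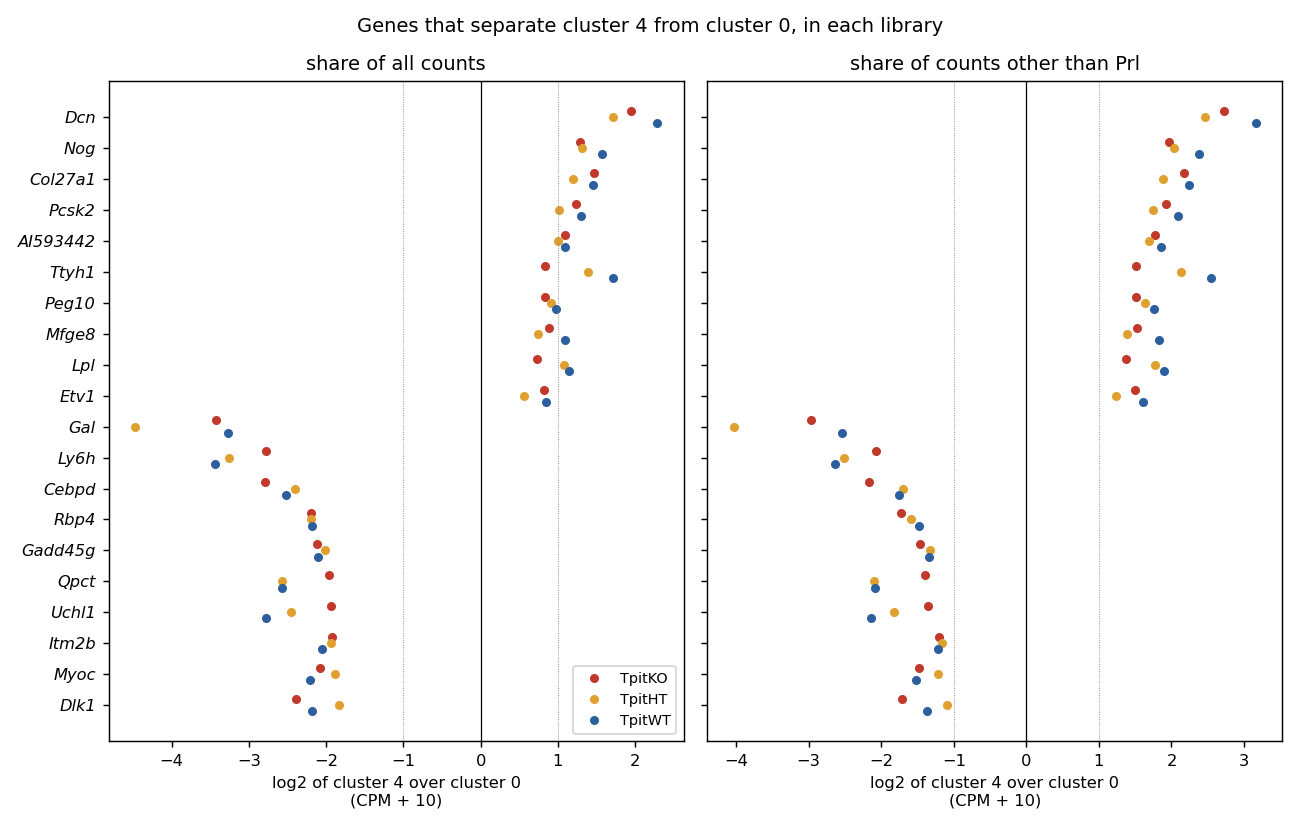
Log2 ratio of cluster 4 over cluster 0, after 10 CPM was added to both, for 10 higher genes (ranked with Prl left out) and 10 lower genes (ranked on all counts), as a share of all counts (left) and of counts other than Prl (right), with 1 point per library. Leaving Prl out moves every gene to the right by a similar amount, and the points of the 3 libraries stay on 1 side of 0 for each gene shown.

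Gene groups were read against the median of all genes with Prl left out. The machinery that moves new secretory proteins into the endoplasmic reticulum and cuts their signal peptides stood slightly higher in cluster 4, with a median of 0.28 in TpitKO, 0.23 in TpitHT and 0.22 in TpitWT. Of its 22 measured genes 16 were above 0 in all 3 libraries, none past 2-fold, among them the translocon subunit gene Sec61a1 (0.49, 0.55 and 0.62). It was not uniform: Ddost, of the oligosaccharyltransferase, was at -0.41, -0.56 and -0.29, and Ssr4 at -0.31, -0.40 and -0.24. Among all genes 1746 of 5632 were above 0 in all 3 libraries.

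Secretory granule genes had medians of 0.14, 0.17 and 0.09, with 8 of 15 above 0 in all libraries. The granule protein gene Chgb stood at 0.77, 1.13 and 1.36, whereas Pcsk1n, which encodes an inhibitor of prohormone convertase 1, stood at -0.95, -0.95 and -1.13. Glucocorticoid-induced genes had medians of -0.24, -0.29 and -0.29, with 9 of 10 below 0 in all libraries and 1 of them, Cebpd, past 2-fold. Immediate early and heat shock genes had medians of -0.41, -0.23 and -0.23, with 9 of 15 below 0 in all libraries and none past 2-fold, including Jun at -0.95, -0.90 and -0.68 and the chaperone gene Dnajb1 at -0.96, -1.07 and -0.91. Among all genes 1781 of 5632 were below 0 in all libraries.

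Oestrogen-responsive pituitary genes had 5 of 6 measured members below 0 in all libraries, Gal among them, with Ccnd1, the cyclin D1 gene, the exception at 0.70, 0.72 and 0.99. Adhesion genes had 4 of 5 below 0, with Cadm1 at -1.19, -1.25 and -1.12 and N-cadherin, Cdh2, at -0.70, -0.97 and -1.03. Both counts stand beside 1781 of 5632 below 0 among all genes. Among pituitary lineage factors, Etv1 was higher, as given above, and Pou1f1 was nearly level at -0.03, 0.17 and -0.05. Drd2 stood at 0.55, 0.49 and 0.54, and Esr1 at -0.41, -0.47 and -0.39.

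Between genotypes, the main contrast set the TpitKO library, which holds no cell of the Pomc-rich clusters 6 and 7, against TpitWT within cluster 4. Of 4282 genes measured, 5 stood at least 2-fold higher in TpitKO (0.117%) and 5 at least 2-fold lower (0.117%), and the median gene was 0.09 higher on the log2 scale. Here and below, 2-fold is judged on log2 ratios after 10 CPM was added to both values. A gene of low level can therefore be short of it while its printed CPM differ by more than 2-fold. The even split depended on the scaling, with 3 higher and 7 lower under TMM factors, 2 and 7 under median-of-ratios factors, 2 and 8 with the authors' deposited scaled counts, and 7 and 12 with hormone and mitochondrial genes left out of the totals. Against TpitHT, 3 of 4304 stood higher (0.0697%), namely Eno3, Gnai1 and Irs4, and 5 lower (0.116%), namely Pomc, Spink8, Spp1, Dlk1 and Nnat. TpitHT against TpitWT gave 2 higher (0.0484%) and 2 lower (0.0484%) of 4132, which shows how far libraries that both carry Tpit stood apart. These contrasts share libraries and are not independent of each other.

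Within cluster 4 prolactin itself hardly differed. The Prl level in TpitKO was 0.959 times that in TpitWT in cluster 4, and TpitHT was 0.958 times TpitWT. In cluster 0 it was 1.23 times the TpitWT level. The change in log2 terms was -0.06 in cluster 4 and 0.30 in cluster 0, for TpitKO over TpitWT. The clustering could use Prl, so a similar level within cluster 4 may be set in part by the grouping of cells. Over all cells of a library, Prl was at 126460 CPM in TpitKO, 80249 in TpitHT and 82174 in TpitWT.

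Eno3 stood out among the genes that were higher in TpitKO. Eno3 (ENSMUSG00000060600, chromosome 11, 70657202 to 70662513, plus strand) was at 109 CPM in TpitKO (104.2 to 113.4), 42.7 in TpitHT (38.5 to 47.2) and 32.3 in TpitWT (28.4 to 36.5). The ratio was 3.37 against TpitWT (2.95 to 3.86) and 2.55 against TpitHT (2.28 to 2.85), and TpitHT and TpitWT stood closer to each other than to TpitKO. It was counted in 55.6% of TpitKO cells, 33.7% of TpitHT cells and 25.3% of TpitWT cells of cluster 4, against 2.72%, 1.78% and 1.93% in cluster 9. In cluster 0 the levels were 87.2, 38.4 and 33.9 CPM, so the difference was not confined to cluster 4. None of the other measured glycolysis genes was past 2-fold, and the next in size was Gpi1 at 0.21.

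Gnai1 (ENSMUSG00000057614, chromosome 5, 18265135 to 18360355, minus strand) was also higher in TpitKO than in both other libraries, by 2.31 times against TpitHT (2.07 to 2.57) and 1.72 times against TpitWT (1.56 to 1.91). A Gnai1 count was found in 54.1%, 31.5% and 36.1% of cluster 4 cells and in 1.45%, 1.07% and 2.90% of cluster 9 cells. In cluster 0 the TpitKO over TpitWT ratio was 1.31 (1.22 to 1.41). Of the 19 measured genes of the G protein and cyclic AMP list, 17 were above 0 and none was past 2-fold, with a median of 0.21 beside 0.09 for all genes, of which 3126 of 4282 were above 0. After Gnai1 the largest were Prkacb, a catalytic subunit of protein kinase A (50.6, 33.5 and 32.1 CPM), the G protein gamma subunit gene Gng3 (65.9, 59.9 and 44.4 CPM), and Creb1 (22.3, 17.5 and 14.3 CPM).

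The genes of exocytosis had a median of 0.25, with 12 of 14 above 0 and none past 2-fold. For all genes the median was 0.09, with 3126 of 4282 above 0. Rab3b, a small GTPase of secretory vesicles, was at 27.7 CPM in TpitKO, 15.6 in TpitHT and 12.2 in TpitWT. Its plain levels in TpitKO and TpitWT differed by more than 2-fold, and it fell short only after 10 CPM was added. Syt1, the calcium sensor synaptotagmin 1, was at 52.7, 27.2 and 28.2 CPM, and the fusion protein gene Snap25 at 123, 94.7 and 82.4 CPM. For Rab3b and Syt1 the TpitKO level lay above both others, whereas in cluster 0 they were close to level, at 68.5, 67.3 and 61.1 CPM for Rab3b and 54.7, 44.6 and 48.2 CPM for Syt1. The median of the list in cluster 0 was 0.03, beside -0.05 for all genes.

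Inducible heat shock genes were higher in TpitKO. Hspa1a was at 134 CPM in TpitKO, 64.6 in TpitHT and 45.3 in TpitWT, and Hspa1b at 80.4, 46.5 and 33.7 CPM. Their sequences are nearly identical, so reads may be split between them and they are best read as 1 signal. They followed the same order of libraries in cluster 0, and in cluster 9 Hspa1a was at 714, 823 and 181 CPM and Hspa1b at 546, 579 and 182 CPM, above cluster 4. Among 16 measured genes of the list of immediate early and heat shock genes, these 2 were past 2-fold, Hspa1b only at 1.05 on the log2 scale and at 0.94 with the deposited scaled counts, and the median was 0.07, with Atf3 lower at 8.47, 12.8 and 22.6 CPM. The plain Atf3 levels of TpitKO and TpitWT differed by more than 2-fold, but not after 10 CPM was added.

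The other genes past 2-fold higher against TpitWT were Cga and Rbm3. Cga encodes the alpha subunit shared by thyrotropin and the gonadotropins, and was at 1193, 725 and 566 CPM in cluster 4, below cluster 9 (3507, 1777 and 1931 CPM), whose cells should not express it. Whether free RNA carried the difference was not tested. Rbm3, a cold-inducible RNA-binding protein gene, was at 90.8 CPM in TpitKO, 83.4 in TpitHT and 37.2 in TpitWT, so TpitWT was the library that stood apart. In cluster 9 Rbm3 was at 168, 168 and 68.3 CPM, with TpitWT again the lowest. These calls lay near the threshold. The log2 ratio of Cga was 1.06, and 0.97 with TMM factors or reduced totals, 0.95 with median-of-ratios factors, 0.93 with the deposited scaled counts and 0.57 with cluster 12 added, all short of 2-fold. Rbm3 was at 1.09, and 0.69 with a pseudocount of 50 CPM and 0.99 with the deposited scaled counts, and it was also short of 2-fold with median-of-ratios factors.

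A looser rule, chosen after the values were seen, asked for at least 1.5-fold in the same direction against both TpitWT and TpitHT. It took 14 of 4220 genes as higher (0.332%) and 13 as lower (0.308%). Beside those already named, the higher genes included Qpct (36.2, 15.9 and 13.1 CPM), Irs4, an insulin receptor substrate (24.2, 6.32 and 7.81 CPM), and Slc17a6, the vesicular glutamate transporter VGLUT2 (27.2, 11.1 and 11.3 CPM). Irs4 showed the same order of TpitKO over the others in cluster 0, at 32.1, 8.73 and 14.4 CPM, and Slc17a6 stood 2.82 times as high in TpitKO as in TpitWT there. Lrp1b, Kctd4, Per3, Olfm3 and Ptprk completed the higher set, with log2 ratios against TpitWT between 0.61 for Ptprk and 0.84 for Lrp1b.

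Pomc was the lowest gene in TpitKO. It encodes the precursor of ACTH and alpha-MSH, and in cluster 4 it was at 45.8 CPM in TpitKO, 601 in TpitHT and 1587 in TpitWT. In cluster 9 it was at 10.7, 1295 and 3212 CPM, above cluster 4 in TpitHT and TpitWT. Pomc counts were found in 34.4%, 99.2% and 97.3% of cluster 4 cells and in 3.80%, 98.2% and 92.3% of cluster 9 cells, so a Pomc count does not mark cells that express the gene in TpitHT and TpitWT. In TpitKO the level and the share of cells were above those of cluster 9 and below those of cluster 0 (149 CPM, 51.9% of cells). The shares of cells differ in depth, with 13793 counts per TpitKO cell in cluster 4 and 4250 in cluster 9. Growth hormone, Gh, was at 6207, 10214 and 15820 CPM in cluster 4 and at 26901, 39604 and 94501 CPM in cluster 9, so in every library it was higher in cluster 9. The part of free RNA in either difference was not tested. Beside the Gh and Pomc levels of TpitWT stand the 39 TpitWT cells that lay far from the lactotrope island, whose part in them was not tested.

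Galanin separated TpitWT from both other libraries in cluster 4. It was at 19.3 CPM in TpitKO and 14.3 in TpitHT, against 63.2 in TpitWT, while in cluster 0 it was at 305, 532 and 699 CPM. The TpitKO over TpitWT ratio was 0.306 in cluster 4 (0.267 to 0.350) and 0.436 in cluster 0 (0.426 to 0.447). In cluster 9 Gal was at 8.53, 10.7 and 93.7 CPM, so the TpitWT level of cluster 4 was below that of a cell type not known for the peptide.

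Spink8, of the Kazal family of protease inhibitors, was lower in TpitKO in both lactotrope clusters. In cluster 4 it was at 6.05 CPM in TpitKO, 40.2 in TpitHT and 31.2 in TpitWT, and in cluster 0 at 26.1, 134 and 149 CPM. It was counted in 4.85%, 23.3% and 18.8% of cluster 4 cells and in 0.725%, 2.85% and 4.83% of cluster 9 cells. Cmtm7, of a family of membrane proteins related to chemokine-like factors, was at 12.98, 30.6 and 38.0 CPM in cluster 4 and 6.80, 15.9 and 19.7 CPM in cluster 0. For both genes TpitKO lay below TpitHT and TpitWT in each lactotrope cluster. Cluster 9 held more Cmtm7 in TpitKO and TpitHT (57.5 and 63.1 CPM) than in TpitWT (25.4 CPM).

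**Figure D4:**
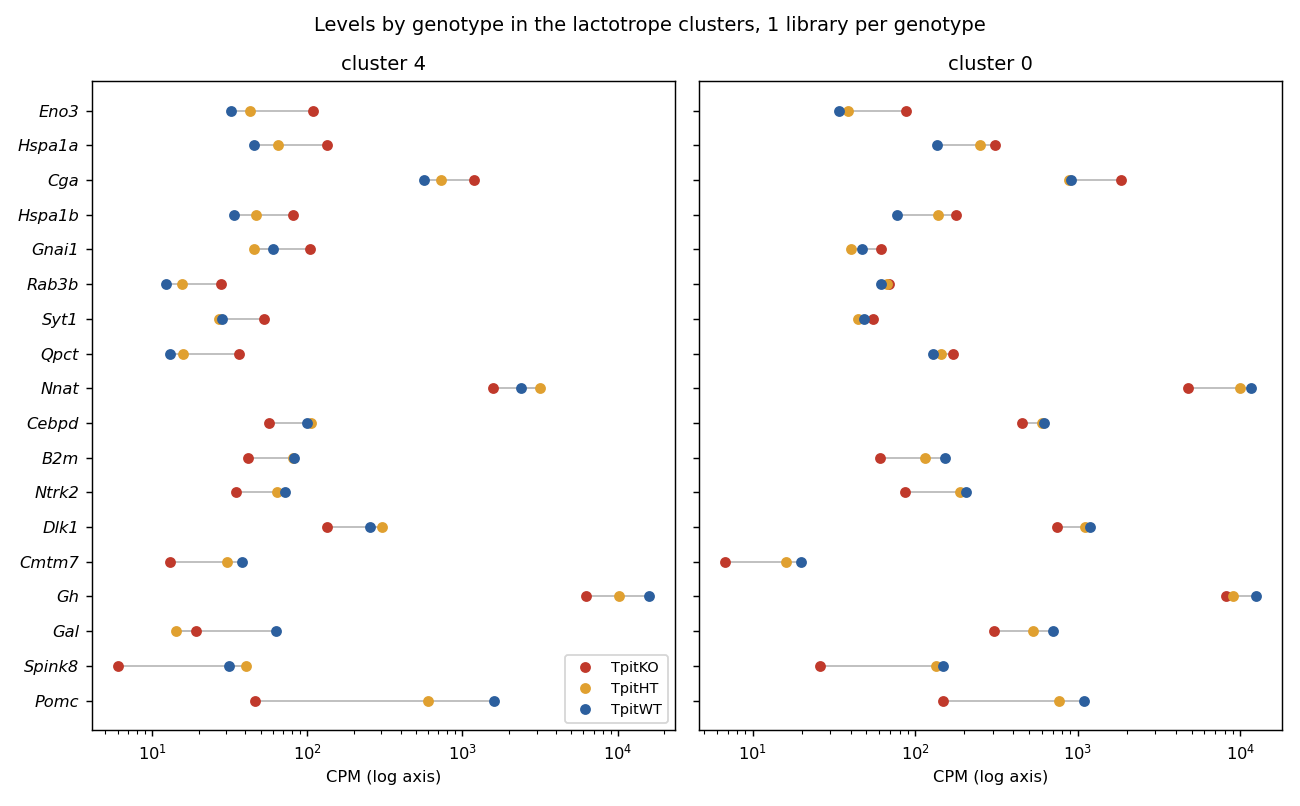
Level in CPM on a log axis of 18 genes in cluster 4 (left) and cluster 0 (right), with 1 point per library (TpitKO red, TpitHT amber, TpitWT blue) and a line from the lowest to the highest. Eno3, Cga and the heat shock genes lie to the right in TpitKO in both clusters, Spink8, Cmtm7, B2m and Ntrk2 lie to the left in both, and Rab3b and Syt1 are spread in cluster 4 and nearly level in cluster 0.

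The imprinted genes Dlk1, which encodes a Notch-related membrane protein, and Nnat, neuronatin, were lower in TpitKO, though not past 2-fold against TpitWT. Dlk1 was at 133, 303 and 254 CPM, and Nnat at 1568, 3161 and 2383 CPM. Both were past 2-fold lower against TpitHT. Dlk1 was at 192, 235 and 482 CPM in cluster 9, above cluster 4 in TpitKO and TpitWT. Of the 15 imprinted genes measured 9 were above 0 and 6 below, with Impact (80.8, 67.7 and 55.3 CPM) and Peg10 (76.7, 62.3 and 55.4 CPM) the largest in the other direction. Of all genes measured, 3126 of 4282 were above 0. In cluster 0 Nnat differed more, at 4774, 9925 and 11576 CPM.

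Glucocorticoid-induced genes were examined because corticotropes drive adrenal glucocorticoid secretion. Of 8 measured genes 6 were below 0 in TpitKO against TpitWT and none was past 2-fold, with a median of -0.17. Among all genes 1156 of 4282 were below 0, with a median of 0.09. Cebpd was at 56.7, 105 and 100 CPM, its partner gene Cebpb at 66.9, 82.6 and 95.4 CPM, the metallothionein gene Mt1 at 100, 170 and 133 CPM, and the phosphatase gene Dusp1 at 385, 393 and 464 CPM. Fkbp5, a widely used glucocorticoid target, was nearly level at 10.7, 13.9 and 10.1 CPM. Cebpd was thus the furthest from level of the genes named, and in cluster 9 it was at 142, 255 and 321 CPM, above cluster 4.

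Receptors of lactotropes showed no member past 2-fold among 6 measured. Ntrk2, the BDNF receptor TrkB, was at 34.6 CPM in TpitKO, 63.8 in TpitHT and 72.1 in TpitWT, and the prolactin receptor gene Prlr at 28.7, 47.8 and 47.4 CPM. For Ntrk2 the plain levels of TpitKO and TpitWT differed by slightly more than 2-fold, but not after 10 CPM was added. Esr1 (log2 0.33) and Drd2 (0.17) were near level. Among oestrogen-responsive genes, Greb1 was at 20.96, 16.7 and 13.01 CPM and Nrip1 at 26.7, 15.5 and 20.4 CPM, and Gal was the only 1 of 6 past 2-fold.

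Unfolded protein response genes had 14 of 20 below 0 and none past 2-fold, with a median of -0.09. Among all genes 1156 of 4282 were below 0, with a median of 0.09. Against TpitHT, 13 of 19 of the list were above 0 instead, beside 2501 of 4304 of all genes. Of the unfolded protein response genes, Creld2 was at 36.8, 36.4 and 48.8 CPM and the chaperone gene Calr at 247, 255 and 297 CPM. TpitWT was thus the library that stood apart. Secretory granule genes had a median of 0.01, and the largest difference was Pcsk2 at 42.9, 64.8 and 64.9 CPM. Resp18, another granule protein gene, was at 596, 1132 and 833 CPM.

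Of the MHC class I and interferon list, 3 of 6 measured genes were above 0 and none was past 2-fold. Of all genes measured, 3126 of 4282 were above 0. B2m, the invariant light chain of MHC class I, was at 41.2 CPM in TpitKO, 81.3 in TpitHT and 82.6 in TpitWT, while the heavy chain gene H2-D1 was nearly level at 123, 126 and 135 CPM. In cluster 9 B2m was at 2641, 2455 and 2057 CPM. Cell cycle genes were too low to be measured with the exception of Pcna (22.3, 24.1 and 18.6 CPM). The rest of the genes lower by the looser rule were Efemp1 (62.9, 108 and 115 CPM), Rbp4 (19.6, 37.0 and 42.9 CPM), Ctxn3 and Mcub. Efemp1 encodes the matrix glycoprotein fibulin-3, and its level in cluster 0 was 44.4, 105 and 100 CPM. Rbp4 in cluster 9 was at 45.2, 38.5 and 46.8 CPM, well above cluster 4 in TpitKO and close to it in TpitHT and TpitWT.

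**Figure D5:**
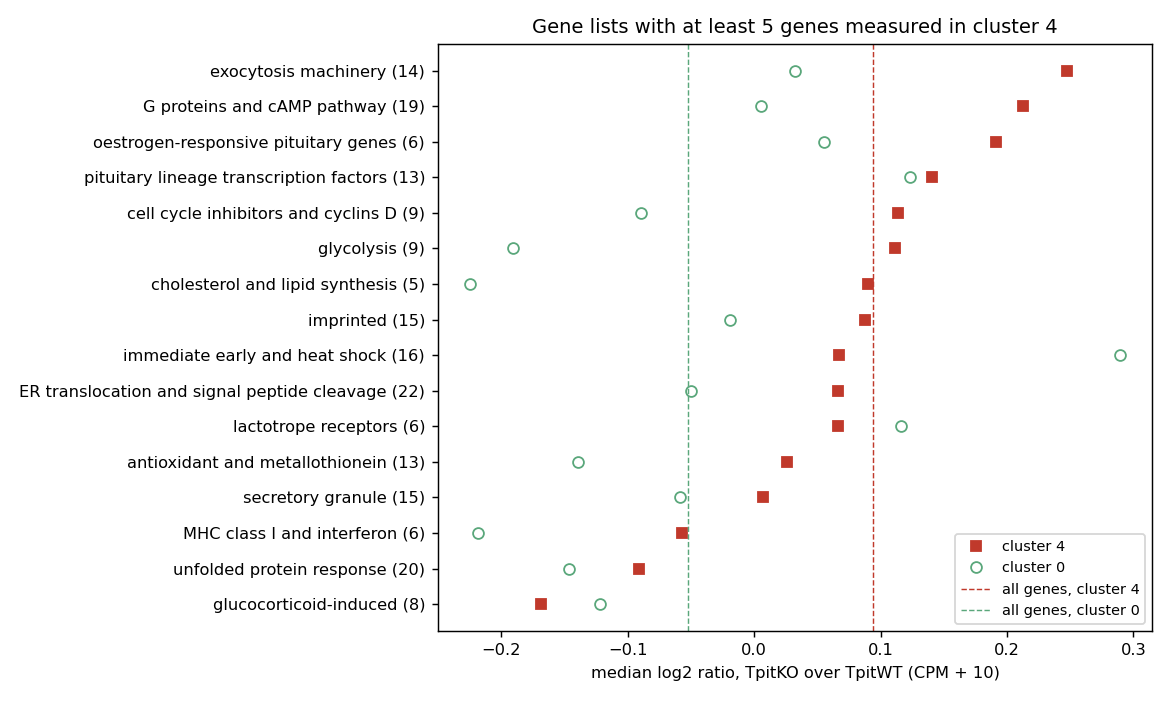
Median log2 ratio of TpitKO over TpitWT for gene lists with at least 5 genes measured in cluster 4 (number in brackets). The list of the marker genes given for the cluster is left out. Cluster 4 is shown as red squares and cluster 0 as open green circles, with dashed lines for the median of all genes in each cluster. Exocytosis and G protein genes lie furthest to the right in cluster 4, and glucocorticoid-induced genes furthest to the left.

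The remaining lists held few measured genes or small differences. Their counts above 0 stand beside 3126 of 4282 above 0 among all genes measured. Antioxidant genes had 8 of 13 above 0, adhesion genes 3 of 4, lipid synthesis genes 4 of 5, cell cycle inhibitors and D cyclins 7 of 9, ion channels 2 of 4 and lineage transcription factors 10 of 13. Outside the adhesion list, their named members were Gpx4 (88.8, 116 and 124 CPM), Fdft1 (23.4, 25.5 and 17.3 CPM), Cdkn1b (51.6, 41.2 and 41.2 CPM), Cacna2d1 (61.0, 51.3 and 48.1 CPM) and Lhx3 (28.9, 38.9 and 42.3 CPM). Lhx3 is a LIM homeobox factor of pituitary development, and none of these genes was past 2-fold. Glycolysis genes had 7 of 9 above 0, genes of entry into the endoplasmic reticulum 18 of 22, and the 5 marker genes 3. The bone morphogenetic protein and neuropeptide lists had 2 measured genes each, 1 above and 1 below 0.

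TpitHT set against TpitWT had 4 genes past 2-fold. Spp1, osteopontin, was at 22.95 CPM in TpitHT and 1.95 in TpitWT, but 207 counts came from 18 cells in TpitHT, against 15 counts in 9 cells of TpitWT. Tshb, the beta subunit of thyrotropin, was at 217 CPM in TpitHT and 93.3 in TpitWT, and cluster 9 was at 251 and 368 CPM. Gal and Pomc were the lower ones. Spp1 in TpitHT thus rested on few cells, and the level of Tshb lay below cluster 9 in both libraries. In clusters 9 and 0 Tshb was lower in TpitHT than in TpitWT, at 122 and 161 CPM in cluster 0. Within cluster 4 it was counted in 55.6% of TpitHT cells and 59.5% of TpitWT cells, so its higher level did not come with more cells holding a count.

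Among the genes past 2-fold in cluster 4, the log2 ratio of TpitKO over TpitWT differed most between clusters 4 and 0 for Pomc (-4.84 in cluster 4 and -2.78 in cluster 0), Spink8 (-1.36 and -2.13) and Gh (-1.35 and -0.61). Eno3 (1.49 and 1.15), Hspa1a (1.38 and 1.12) and Rbm3 (1.09 and 1.25) differed less. These ratios include the 10 CPM added to both values, which shrinks ratios of low levels most. Spink8 in TpitKO was at 6.05 CPM in cluster 4 and 26.1 CPM in cluster 0. Its smaller ratio in cluster 4 therefore does not show a smaller fall there. No gene past 2-fold in cluster 4 had the opposite sign in cluster 0. With 1 library per genotype, none of these gaps between clusters could be tested.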

How the data were processed

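Pituitary cells of 3 libraries, 1 each for TpitKO, TpitHT and TpitWT, were loaded on 10x Chromium 3' reagents, per the labels' protocols. Cell Ranger 5, Seurat 3.1, DESeq2 and the builds mm10 and GRCm38 are named in the submitters' processing notes, with no step given for any of them. The authors deposited raw counts of each gene as sums over cells, 1 for each of 61 combinations of genotype and cluster. A second deposited table holds the same sums scaled by the authors, a signal used as an alternative only. Other deposited quantities are the number of cells with a count of each gene, and the cluster number and map position of each barcode. Whether reads were collapsed to molecules is not stated there, so values are called counts. Counts per single cell were not used: only means per cell could be given, and no doublet caller was run.

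Rows with the same symbol were added (110 rows, leaving 55293 symbols). Coordinates are those of the deposited table, and 52899 of 53292 shared symbols have the same ones in GENCODE M21 (GRCm38). The promoter came from RefSeq (GRCm38.p6). Counts were scaled to CPM of the cluster total. Log2 ratios were taken after adding 10 CPM, and folds are plain CPM ratios. A gene was measured with at least 50 counts in the libraries compared and at least 20 CPM in one of them. Past 2-fold means a log2 ratio, with the 10 CPM added, at or beyond 1 in either direction, in all 3 libraries for cluster 4 against cluster 0. Levels were not scaled to gene length and are not compared between genes. Intervals are 95% exact Poisson for CPM, Clopper-Pearson for shares and conditional binomial for ratios, for counting error only. Counts from 1 cell are not independent, which makes the intervals narrower than they should be. No test was run, and no ratio of cluster sizes is given.

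Genes named were those past 2-fold against TpitWT and by 0.5 or more on the log2 scale against TpitHT, the same way, up to 10 each way between the clusters, the largest in TpitHT against TpitWT, up to 4 members of each of 22 gene lists, and the markers and hormone genes. A few list members that this rule names are not reported here. Predicted, sex-linked, hemoglobin, ribosomal and mitochondrial genes were not ranked. Rbm3 entered by its difference between clusters, and Dnajb1, Fkbp5, Mki67 and the genes of the 1.5-fold rule after their values were seen. The members and lists were chosen with earlier results of these data known. Alternatives used other pseudocounts, filters and scalings, with edgeR 4.0.16 in R 4.3.3 for TMM and median-of-ratios factors. Ratios were checked on simulated data. Python 3.11.15, numpy 2.4.6, pandas 2.3.3, scipy 1.17.1 and matplotlib 3.10.9 were used.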

Additional observations from a re-analysis of the deposited data

How the results depend on the processing

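No paired analysis was possible because there was 1 library per genotype. TpitKO against TpitWT in cluster 4 had 10 genes past 2-fold. The count was 26 with a pseudocount of 1 CPM, 3 with 50 CPM, 19 with hormone and mitochondrial genes left out of the totals, and 27 by the 1.5-fold rule against both libraries. It was 9 to 13 under the other settings tried, with the split by direction in the report. Cga, Hspa1b and Rbm3 were each short of 2-fold under some scalings, and only Pomc, Gh and Cga of the 10 were past it with 50 CPM. TpitKO against TpitHT had 8, and 19, 1 and 41 with 1 CPM, 50 CPM and the 1.5-fold rule; its 3 higher and 5 lower became 6 and 6 with the reduced totals. TpitHT against TpitWT had 4, and 11, 1, 7 and 23 with 1 CPM, 50 CPM, the reduced totals and the 1.5-fold rule; its 2 higher and 2 lower became 2 and 5 with the reduced totals and 1 and 3 with the deposited scaled counts. List members past 2-fold were 4, and 7 with 1 CPM and 8 with the reduced totals, where 3 were higher and 5 lower, against 3 and 1. Cluster 4 against cluster 0 had 183, and 373 with 1 CPM, 33 with Prl left out of the totals and 83 per cell. The shares of cluster 4 are given in the report on each base, and with cluster 12 added they were 14.1% in TpitKO, 5.23% in TpitHT and 6.04% in TpitWT, beside 31.7%, 11.8% and 15.1% of clusters 0 and 4, and 5.31% of TpitHT and 6.29% of TpitWT cells outside clusters 6 and 7. List medians near 0 changed sign: cell cycle to -0.0035 and neuropeptides to 0.0071 with no filter on low counts, glycolysis to -0.012 and cell cycle inhibitors to -0.0084 with the deposited scaled counts. The cause was not tested. The median of all genes was 0.09 for TpitKO over TpitWT, 0.02 with TMM factors and -0.01 with the deposited scaled counts, so list counts above 0 shift with the scaling. Over 8 settings, Eno3 stayed between 0.95 and 1.72, Gnai1 between 0.48 and 0.78, Spink8 between -2.19 and -0.54, and Igsf1 between -0.05 and 0.11 on the log2 scale. Depth limits genes under 20 CPM, and 1 library per genotype limits every contrast.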
